A study of Homo sapiens with 4 samples.

Results

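The messages of the core miRNA machinery form a set of 10 protein-coding genes, found by symbol among 61543 genes in the deposited count table, and all 10 were present and tested. They are DROSHA, DGCR8, XPO5, DICER1, TARBP2, AGO1, AGO2, AGO3, AGO4 and TNRC6A. Their RNA was measured outside the cells, in medium conditioned by HEK293T, an established line derived from human embryonic kidney. The assay, POND-seq, uses a protein that assembles into nanocages, shells that the cell secretes with RNA enclosed. In 2 libraries the cage protein carried Cas13d, a CRISPR effector that recognises RNA through a guide (EPN24-Cas13d), and in the other 2 the labels name the cage protein alone (EPN24). The question is which cellular messages the Cas13d fusion takes along. No guide RNA, promoter or clone is named in the labels. Total RNA of 200 µl of supernatant was extracted together with synthetic ERCC RNA, so RNA inside and outside the shells was sequenced together, and fewer releasing cells and less RNA per cell cannot be told apart.

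In animal cells the miRNA pathway runs in a fixed order. In the nucleus the RNase Drosha, held by its partner DGCR8, cuts hairpins out of long primary transcripts, and exportin-5, made from XPO5, carries the hairpins to the cytoplasm. There Dicer, with the double-stranded RNA-binding protein TRBP made from TARBP2, cuts them to the mature duplex. One strand is loaded into an Argonaute protein, and GW182 proteins such as TNRC6A link Argonaute to the enzymes that silence the target message. What was measured here is the amount of the messages that encode these proteins in supernatant, not the proteins or the mature miRNAs.

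Counts assigned to genes totalled 5097332 and 4863449 with EPN24-Cas13d, against 1830860 and 1903492 with EPN24. ERCC RNA took 1.73% and 1.66% of all counts with EPN24-Cas13d, against 19.6% and 20.9% with EPN24. A count of 3 corresponded to 0.721 and 0.755 CPM in EPN24-Cas13d and to 1.34 and 1.42 CPM in EPN24, where CPM is a gene's count over library size (1e6 counts) with TMM, a scaling that assumes most genes are unchanged. All 6 HEK293T markers listed for this check had counts in every library, with summed levels of 1430 and 1325 CPM in EPN24-Cas13d and 273 and 258 CPM in EPN24. IGF2BP1 alone gave 1245 and 1160 CPM of the EPN24-Cas13d sums, against 67.8 and 60.6 CPM of those in EPN24. Of the 6, 2 were called higher, 2 lower (LIN28B and NEFM) and 2 neither with TMM scaling, and with ERCC scaling 5 higher and 0 lower. Markers of blood (5 genes, of which HBA1 was at 0 throughout) summed to 2.40 and 3.52 CPM against 14.7 and 20.4 CPM, and those of liver and serum proteins (5 genes) to 7.45 and 5.03 CPM against 40.6 and 36.5 CPM. The 370 olfactory receptor genes, sensory receptors of the nose, carried 0.175 and 0.140 counts per kb of exon with EPN24-Cas13d, against 1.83 and 1.42 with EPN24. A count was present for 17.0% and 14.3% of them in EPN24-Cas13d, and for 72.4% and 59.2% in EPN24. A marker's having a count therefore says little in EPN24. The part that the marker levels play in the results and the source of the receptor counts were not tested. The receptor density served as the background level subtracted in an alternative below. Nothing in the labels ties the replicates to separate cultures, so the p-values reflect the spread of these libraries alone, and that spread may be technical.

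A pair of sequence sets shows what the values below concern. The first set is carried by DGCR8 itself: its exons contain the annotated hairpins of 2 miRNAs, and Drosha is known to cut the DGCR8 message at such hairpins in mammalian cells. The mature sequences, from RefSeq on GRCh38.p14 and on the plus strand of chromosome 22, are given 5′ to 3′ with the seed (bases 2 to 8) in capitals, and no seed is shared between them.
hsa-miR-3618: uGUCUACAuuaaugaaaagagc
hsa-miR-1306-5p: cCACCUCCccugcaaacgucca
hsa-miR-1306-3p: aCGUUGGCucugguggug

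The second set shows how far neighbouring Argonaute genes differ in the bases at the end of the coding sequence. AGO4, AGO1 and AGO3 lie next to one another on the plus strand of chromosome 1, and the lines below hold the last 60 coding bases of each, stop codon included, from GENCODE 29 on GRCh38. G or C at the last position of a codon is in capitals. AGO1 had 14 such codons of 20, AGO4 had 12 and AGO3 had 9. AGO1 and AGO3 differed at 12 of the 60 bases, 9 of them at the last codon position. The stretch does not stand for the whole message: over the coding sequence G or C took 66.4% of last codon positions in AGO1, 44.7% in AGO4 and 39.5% in AGO3.
AGO1: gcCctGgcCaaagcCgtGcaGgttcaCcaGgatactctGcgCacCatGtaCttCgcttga
AGO4: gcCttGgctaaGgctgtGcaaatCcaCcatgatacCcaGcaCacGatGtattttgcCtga
AGO3: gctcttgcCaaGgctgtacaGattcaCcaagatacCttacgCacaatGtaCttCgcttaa

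The 10 messages split into 6 that were much higher in EPN24-Cas13d and 4 that moved like the middle of all genes. AGO2, XPO5, TARBP2, AGO4, DGCR8 and AGO1 had log2 fold changes from 1.53 to 3.49 with TMM scaling, and DROSHA, AGO3, TNRC6A and DICER1 from -1.17 to -0.54. All 10 were called at 0.05, using the quasi-likelihood test of edgeR and Benjamini-Hochberg adjustment across the 20476 genes tested. Of all tested genes 80.9% were called, 32.6% higher and 48.2% lower, so a call in either direction is common here. The members' median log2 fold change was 1.97 and that of all tested genes was -0.96. The 4 lower members lay between the 48.1 and 53.8 percentile of all tested genes, and the 6 higher ones between the 74.5 and 93.3 percentile. That position depends on which genes are tested: with a filter of 10 counts and 10 CPM in both libraries of a group, 11601 genes remained and the 4 lay between -2.08 and -1.45 relative to their median on the log2 scale. The groups did not overlap in CPM for any member, as for 36.8% of tested genes in the higher and 54.3% in the lower direction.

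**Figure D1:**
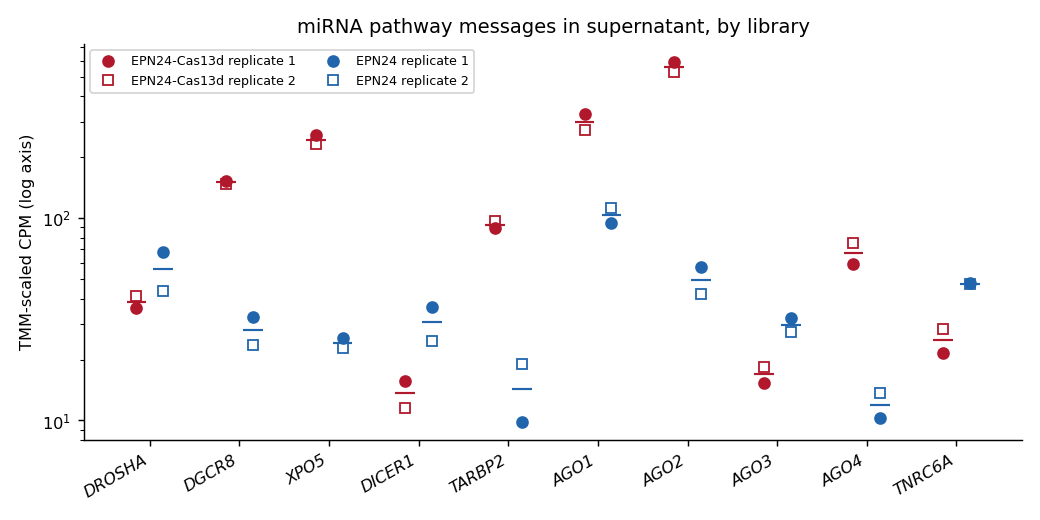
TMM-scaled CPM (log axis) of the 10 messages in each of the 4 libraries, with EPN24-Cas13d in red left of EPN24 in blue, and short lines at group means (n = 2 in each). The largest gaps are those of AGO2 (559 against 49.6 CPM on average) and XPO5 (244 against 24.1 CPM).

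Measured against the ERCC RNA added to each supernatant, all 10 messages were more abundant with Cas13d. ERCC scaling raised the all-gene median by 3.34 on the log2 scale, to 2.38, and called 58.4% of them higher and 2.33% lower, so 96.2% of its calls were higher against 40.4% with TMM. With it the 6 higher members lay between 4.90 and 6.84, and DROSHA, AGO3, TNRC6A and DICER1 turned to 2.80, 2.53, 2.43 and 2.17, close to that median. The authors' deposited table gives log2 fold changes between 2.12 (DICER1) and 6.79 (AGO2) for the members, each with an adjusted p under 0.05, where 30.6% of its genes with an adjusted p are called higher and 0.201% lower. Summed member counts per ERCC count were 38.9 times as high with EPN24-Cas13d as with EPN24, and for all gene counts this ratio was 14.7. AGO2 and AGO1 supplied most of the EPN24-Cas13d counts, so this ratio is mainly theirs.

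**Figure D2:**
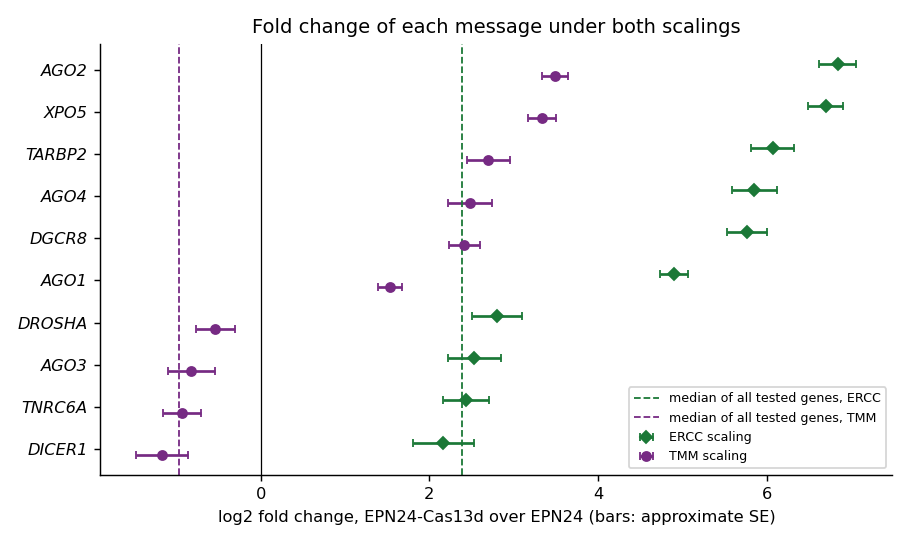
Log2 fold change (EPN24-Cas13d over EPN24) of each message with ERCC scaling (green) and TMM scaling (purple), with approximate SE bars, and the median of all tested genes under each scaling as a dashed line. The 4 lowest messages sit near the dashed line in both, and AGO1 to AGO2 lie well to the right of it.

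The nuclear cutting step split between its partners. DGCR8, the RNA-binding partner of Drosha (ENSG00000128191.16, chromosome 22, 20080232 to 20111877, plus strand), measured 153 and 148 CPM in EPN24-Cas13d and 32.6 and 23.7 CPM in EPN24. Its log2 fold change was 2.41 with an approximate SE of 0.19 (adjusted p = 2.89e-08, edgeR). DROSHA, the RNase itself (ENSG00000113360.17, chromosome 5, 31400494 to 31532196, minus strand), measured 36.1 and 41.0 CPM in EPN24-Cas13d and 68.2 and 43.6 CPM in EPN24. The upper EPN24-Cas13d library and the lower EPN24 library of DROSHA differed by less than the spread within EPN24. Its log2 fold change of -0.54 (SE 0.23, adjusted p = 0.0433, edgeR) was not called by the DESeq2 Wald test (adjusted p = 0.170), nor without EPN24-Cas13d replicate 1 (0.389), EPN24-Cas13d replicate 2 (0.203) or EPN24 replicate 1 (0.181), where it was -0.38, -0.56 and -0.32. It also lost its call with no filter (-0.18, adjusted p = 0.510), with limma-voom (-0.51, adjusted p = 0.108) and with the GC trend removed (-0.0057, adjusted p = 0.984).

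The ratio of the partners does not depend on how libraries are scaled. There were 4.23 and 3.61 DGCR8 counts for each DROSHA count in EPN24-Cas13d, against 0.477 and 0.543 in EPN24. DROSHA made up 19.1% (95% exact binomial interval 16.4% to 22.0%) and 21.7% (18.8% to 24.8%) of their summed counts in EPN24-Cas13d. In EPN24 it made up 67.7% (61.2% to 73.7%) and 64.8% (56.3% to 72.6%). The intervals of the groups do not overlap. Such intervals cover counting error alone: the labels name no molecular identifiers, and PCR copies are not separate molecules. Between 66.8% and 72.4% of the whole counts per library were even numbers, and if both mates of a pair were counted the intervals are too narrow for counting error as well.

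Reads also fell on the miRNA hairpins inside DGCR8. The MIR1306 locus (chromosome 22, 20086058 to 20086142) had 18 and 18.5 counts with EPN24-Cas13d, against 1 and 3 with EPN24, and the MIR3618 locus (20085746 to 20085833) had 15 and 8.5 against 1 and 1. MIR3618 did not pass the filter on low counts, and MIR1306 passed it through EPN24-Cas13d alone, so no fold change is given for either. The hairpins of 85 and 88 bases are shorter than a read of 150 bases, and reads of the intact DGCR8 message, of a cut fragment and of a precursor cannot be told apart here. DGCR8 also shares 526 bp of exon, 7.19% of its length, with an antisense lncRNA that had 62.8 and 46 counts with EPN24-Cas13d, against 5 and 6 with EPN24.

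XPO5, the export receptor for precursor hairpins (ENSG00000124571.18, chromosome 6, 43522334 to 43576038, minus strand), was among the 2 messages with the largest increase. It measured 257 and 232 CPM in EPN24-Cas13d and 25.4 and 22.7 CPM in EPN24, and the replicates of each group lay close together. The log2 fold change was 3.34 (SE 0.17, adjusted p = 1.93e-10, edgeR), a 10.1-fold difference. An antisense neighbour, POLR1C, shares 348 bp of exon with XPO5, 4.10% of its length.

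At the cytoplasmic step the partner and the enzyme again parted. TARBP2, which encodes TRBP (ENSG00000139546.11, chromosome 12, 53500921 to 53506431, plus strand), measured 89.2 and 96.6 CPM in EPN24-Cas13d and 9.81 and 18.9 CPM in EPN24. Its log2 fold change was 2.7 (SE 0.26, adjusted p = 3.26e-07, edgeR), and 0.66 with the GC trend over all genes removed (adjusted p = 0.0413). DICER1 (ENSG00000100697.16, chromosome 14, 95086228 to 95158010, minus strand) measured 15.6 and 11.6 CPM in EPN24-Cas13d and 36.6 and 24.6 CPM in EPN24. Both EPN24-Cas13d libraries lay below both EPN24 libraries, and the raw counts were low in all, 65 and 46 against 82.5 and 52.5. The log2 fold change was -1.17 (SE 0.31, adjusted p = 0.00318, edgeR). That call was lost without EPN24-Cas13d replicate 2 (-0.90, adjusted p = 0.0763), and the sign turned with ERCC scaling (2.17) and with the GC trend removed (0.71, adjusted p = 0.0534).

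The count ratio of the pair does not depend on library scaling, but it is not corrected for base composition, and with the GC trend removed TARBP2 (0.66) and DICER1 (0.71) had nearly equal fold changes. TARBP2 had 5.71 and 8.35 counts for each DICER1 count with EPN24-Cas13d, against 0.267 and 0.771 with EPN24. The EPN24 libraries differed from each other here, as DICER1 took 78.9% (95% exact binomial interval 69.7% to 86.2%) of the pair's counts in replicate 1 and 56.5% (45.2% to 66.2%) in replicate 2. In EPN24-Cas13d DICER1 took 14.9% (11.7% to 18.6%) and 10.7% (7.94% to 14.0%), below both.

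Among the Argonaute messages 3 of 4 rose and AGO3 did not follow them. AGO2 encodes the member best known for cutting its target (ENSG00000123908.12, chromosome 8, 140520156 to 140635633, minus strand). It measured 591 and 527 CPM in EPN24-Cas13d and 57.1 and 42.1 CPM in EPN24. This was the largest of the 10 differences, 11.2-fold, with a log2 fold change of 3.49 (SE 0.15, adjusted p = 4.54e-11, edgeR). AGO4 (ENSG00000134698.11, chromosome 1, 35808016 to 35857890) measured 59.1 and 75 CPM in EPN24-Cas13d and 10.3 and 13.7 CPM in EPN24, a log2 fold change of 2.48 (SE 0.26, adjusted p = 1.05e-06, edgeR).

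AGO1 (ENSG00000092847.13, chromosome 1, 35869808 to 35930532) is the neighbour of AGO4. It measured 326 and 273 CPM in EPN24-Cas13d and 95 and 113 CPM in EPN24, a log2 fold change of 1.53 (SE 0.14, adjusted p = 2.25e-07, edgeR). It was 0.66 when genes had to reach 10 counts and 10 CPM in both libraries of a group, and 0.73 with background subtracted at the olfactory receptor density, and it stayed called in both. AGO3 starts 185 bp after the end of AGO1 (ENSG00000126070.20, chromosome 1, 35930718 to 36072500). It measured 15.4 and 18.4 CPM in EPN24-Cas13d and 32.1 and 27.5 CPM in EPN24, from 64.5 and 73 against 71.5 and 58.5 raw counts. Its log2 fold change was -0.82 (SE 0.27, adjusted p = 0.0131, edgeR).

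The AGO3 call was not stable. It was lost without EPN24-Cas13d replicate 1 (-0.63, adjusted p = 0.214), without EPN24-Cas13d replicate 2 (-0.88, adjusted p = 0.0836), with the DESeq2 Wald test (-0.84, adjusted p = 0.0969), with no filter (-0.46, adjusted p = 0.227), with background subtracted (-0.75, adjusted p = 0.0944) and with the length trend removed (-0.47, adjusted p = 0.129). The sign turned with ERCC scaling (2.53) and with the GC trend removed (1.11, adjusted p = 0.00264). In EPN24 the density of AGO3 counts per kb was 1.84 and 1.94 times that of the olfactory receptor genes, and that of AGO4 was 1.69 and 2.75 times. In EPN24-Cas13d the same figures were 17.4 and 24.6 for AGO3, and 189 and 286 for AGO4.

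The makeup of the Argonaute messages therefore differed between the groups. Of the 4 messages' summed counts AGO2 took 59.6% (95% exact binomial interval 58.1% to 61.1%) and 59% (57.3% to 60.6%) in EPN24-Cas13d, against 29.4% (25.1% to 33.9%) and 21.5% (17.6% to 25.8%) in EPN24. AGO3 took 1.56% and 2.06% with EPN24-Cas13d, against 16.4% and 14.1% with EPN24. AGO1 took 32.9% and 30.6% against 48.9% and 57.4%. AGO4 took 5.96% (5.26% to 6.73%) and 8.39% (7.5% to 9.35%) with EPN24-Cas13d, against 5.28% (3.37% to 7.81%) and 7.0% (4.74% to 9.91%) with EPN24, and these ranges overlap.

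**Figure D3:**
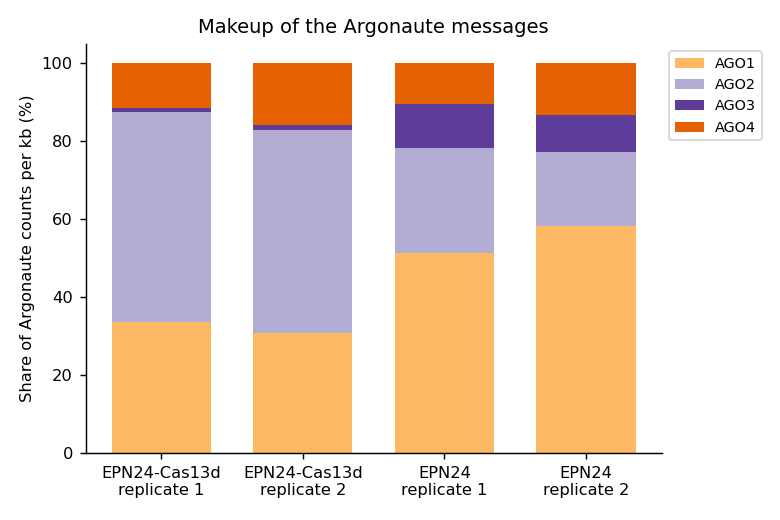
Share of each Argonaute message in the 4 messages' summed counts per kb of exon (%), as stacked bars that reach 100, for each library. AGO2 makes up 53.7% and 52.1% with EPN24-Cas13d, against 27.0% and 19.1% with EPN24, and AGO3 1.05% and 1.4%, against 11.3% and 9.40%.

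TNRC6A, a GW182 scaffold protein that binds Argonaute (ENSG00000090905.19, chromosome 16, 24610209 to 24827632, plus strand), measured 21.6 and 28.2 CPM in EPN24-Cas13d and 47.7 and 47.3 CPM in EPN24. The log2 fold change was -0.93 (SE 0.23, adjusted p = 0.00214, edgeR), which is within 0.030 of the median of all tested genes. Its call was lost without EPN24-Cas13d replicate 1 (-0.69, adjusted p = 0.136), with no filter (-0.58, adjusted p = 0.0532) and with the GC trend removed (-0.42, adjusted p = 0.117). Of the sister messages, TNRC6B measured 68.3 ± 5.52 CPM in EPN24-Cas13d and 74.9 ± 8.86 CPM in EPN24 (SD, n = 2 in each) and was not called (-0.13, adjusted p = 0.483, edgeR). TNRC6C measured 42.0 ± 2.11 against 26.4 ± 13.2 CPM and was called higher (0.66, adjusted p = 0.0458, edgeR). The difference between the 3 GW182 messages was not tested.

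Levels can be compared between genes only per length, here as CPM per kb of the deposited exon length, which counts every annotated exon and so lowers genes with many isoforms. In EPN24-Cas13d the order was AGO2 (35.3 ± 2.86), XPO5 (28.8 ± 2.06), TARBP2 (22.7 ± 1.29), AGO1 (21.6 ± 2.7), DGCR8 (20.6 ± 0.425), AGO4 (9.04 ± 1.51), DROSHA (4.95 ± 0.451), TNRC6A (1.92 ± 0.357), DICER1 (0.972 ± 0.205) and AGO3 (0.798 ± 0.0999), each in CPM per kb (SD, n = 2). The means of TARBP2 and DGCR8 lay within the spread of AGO1, and that of AGO3 within the spread of DICER1. Both TARBP2 libraries lay above both DGCR8 libraries. In EPN24 the levels were closer together, from AGO1 (7.48 ± 0.899) and DROSHA (7.18 ± 2.24) down to AGO4 (1.62 ± 0.331) and AGO3 (1.41 ± 0.156). DGCR8, TNRC6A, TARBP2, AGO2 and XPO5 lay between 3.84 and 2.84 CPM per kb there. Among these, the spreads of DGCR8, TARBP2 and AGO2 took in the adjacent means. DICER1 was at 2.19 ± 0.604. The highest mean was 44.2 times the lowest in EPN24-Cas13d and 5.31 times in EPN24.

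The 6 higher and 4 lower messages are groups set by the fold change itself. They were apart in GC content of the 3′ untranslated region and overlapped on the other GC measures. In the GENCODE 29 transcript with the longest coding sequence, GC content of the 3′ untranslated region was 40% to 54.4% in the 6 higher messages and 34.2% to 38.7% in the 4 lower ones. GC at the last codon position was 44.7% (AGO4) to 72.8% (AGO2) in the higher and 39.5% (AGO3) to 47.3% (DROSHA) in the lower messages, so AGO4 lies within the range of the lower messages on that measure. Across the 10 genes, which share the same 4 libraries, the Pearson correlation with the log2 fold change was 0.77 for GC of the 3′ untranslated region, 0.74 for GC at the last codon position and 0.61 for GC of the whole transcript. The Spearman values were 0.76, 0.75 and 0.67. GC of the coding sequence gave 0.65 (Pearson) and 0.55 (Spearman). The groups overlapped in GC of the coding sequence (47.5% to 59.9% in the higher, 42.7% to 48.4% in the lower messages). They also overlapped in GC of the whole transcript (44.2% to 60.8% against 38.9% to 45.9%). Coding length ran the other way (Pearson r = -0.68, Spearman rho = -0.56), with DICER1 (1922 codons) and TNRC6A (1962 codons) the longest. The length of the 3′ untranslated region showed little relation (Pearson r = -0.12), as AGO2 with 11888 bases and AGO3 with 16755 bases had fold changes of opposite sign with TMM.

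The same relation ran through the whole data set. Over 19924 tested genes with a GC value the Pearson correlation of transcript GC with log2 fold change was 0.46, and that of exon length was -0.012. The median log2 fold change was -3.05 for genes under 40% GC, which hold AGO3 and DICER1, and -1.08 for genes of 45% to 50% GC, which hold AGO1, AGO2, XPO5, DROSHA and TNRC6A. AGO3 (38.9% GC, -0.82) and DICER1 (39.2% GC, -1.17) thus lay above the median of their class. In the 45% to 50% class AGO2 (46.6% GC, 3.49) and TNRC6A (45.9% GC, -0.93) stood far apart at nearly equal GC. Removing the GC trend left the 6 higher messages called higher, at 0.66 (TARBP2) to 3.89 (AGO2), added AGO3 to them, and left no member called lower.

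**Figure D4:**
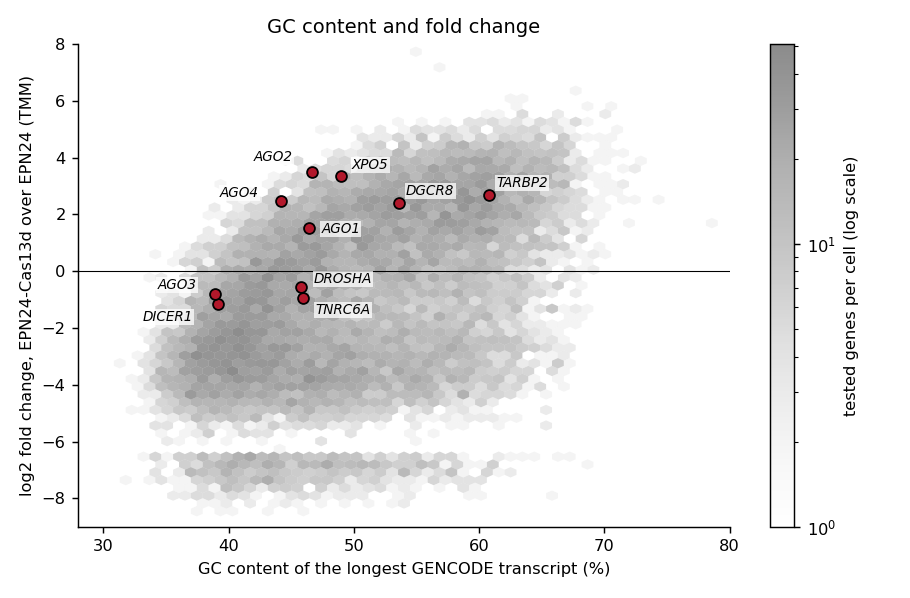
Log2 fold change (EPN24-Cas13d over EPN24, TMM) against GC content of the longest GENCODE transcript (%), for all tested genes with a symbol (grey, darker where there are more genes) and the 10 messages (red). AGO3 and DICER1 sit at the low-GC end, and AGO2, AGO1, DROSHA and TNRC6A share a GC content between 45% and 50% but not a fold change.

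The wider pathway, 70 other genes in 6 lists of which 69 were tested, had 27 called higher (39.1%, against 32.6% of all tested genes), 29 lower (42.0% against 48.2%) and 13 neither. Their median log2 fold change was -0.13, and that of all tested genes -0.96. With ERCC scaling 53 were higher and 2 lower, where 58.4% and 2.33% of all tested genes were. Counts by list stand beside these shares as descriptions, and no difference from all genes was tested. The lower calls with TMM include PIWIL2 and PIWIL3, which passed the filter on low counts through EPN24 alone. Genes that pass in this way also enter the medians and the shares of all tested genes. The nuclear partners of processing had 6 higher and 4 lower of 12. KHSRP, a protein that binds some precursors and promotes their maturation, measured 2504 ± 51.3 against 110 ± 0.393 CPM (SD, n = 2 in each; log2 fold change 4.51). Per kb of exon it exceeded every core member in EPN24-Cas13d, at 485 CPM per kb against 35.3 for AGO2. The rule for naming genes picked none of the 4 lower nuclear partners. They include ERH and SRSF3, the 2 genes called lower with ERCC scaling as well.

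Of the messages for export, precursor binding and tailing 2 were higher and 6 lower of 8 (25% and 75%, against 32.6% and 48.2% of all tested genes; median -2.36, but 1.01 with ERCC scaling, where 4 were higher and 0 lower). ADAR, which edits adenosines in double-stranded RNA, was at 950 ± 53.1 against 70.0 ± 10.1 CPM (3.76). DIS3L2, the exonuclease that degrades uridylated precursors, was at 103 ± 13.3 against 19.7 ± 2.42 CPM (2.38). RAN, the GTPase that exportin-5 needs, was at 62.8 ± 7.95 against 106 ± 27.5 CPM (-0.75, turning to 2.63 with ERCC scaling). Of the Argonaute-loading chaperones 7 were higher and 4 lower of 12 (median 1.72). HSPA8 was at 3.59, HSP90AB1 at 2.41 and the HSP90 co-chaperone FKBP4 at 3.94. These are among the 7 higher ones. The rule for naming genes picked none of the 4 called lower, which were DNAJA1, DNAJA2, PTGES3 and HSP90AA1.

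Of the 28 effectors of silencing 10 were higher (35.7%, against 32.6% of all tested genes), 10 lower (35.7% against 48.2%) and 8 neither (median -0.18, turning to 3.19 with ERCC scaling). EDC3, a decapping enhancer, measured 509 ± 33.9 against 27.1 ± 9.57 CPM (4.22). LIMD1, a LIM protein that binds Argonaute, measured 168 ± 1.33 against 11.1 ± 1.77 CPM (3.92). In EPN24 its counts per kb were only 0.946 and 1.44 times those of the olfactory receptor genes. CNOT1, the scaffold of the deadenylase complex, measured 482 ± 40.8 against 143 ± 27.4 CPM (1.76). PABPC1, the poly(A)-binding protein, was lower at 189 ± 8.92 against 363 ± 29.2 CPM (-0.94, turning to 2.43 with ERCC scaling). Of the 6 genes of Argonaute turnover and target-directed decay 2 were higher and 3 lower. ZSWIM8, a ubiquitin ligase component of target-directed miRNA decay, was at 322 ± 31.0 against 28.6 ± 7.70 CPM (3.49). ELOC, elongin C, had 4 and 5 counts with EPN24-Cas13d, against 40 and 44 with EPN24, near the floor of 3 counts with EPN24-Cas13d, and no fold is given. For the genes named from these 5 lists edgeR's adjusted p ran from 1.27e-12 (KHSRP) to 0.00257 (RAN).

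The PIWI clade, the germline relatives of the Argonautes, was at or near the floor of 3 counts with EPN24-Cas13d for PIWIL1, PIWIL2 and PIWIL3. PIWIL1 had 0 and 0 counts with EPN24-Cas13d, against 5 and 16 with EPN24, and was not tested. PIWIL2 had 0 and 2 counts with EPN24-Cas13d, against 24 and 13 with EPN24, and PIWIL3 had 0 and 2 against 16 and 14. Both of these passed the filter on low counts through EPN24 alone, so no fold or p is given. Their EPN24 counts per kb were 2.28 and 1.59 (PIWIL2) and 2.30 and 2.59 (PIWIL3) times those of the olfactory receptor genes. For PIWIL1 the same figures were 0.516 and 2.13. PIWIL4 was not called (log2 fold change 0.60, adjusted p = 0.313, edgeR).

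Over the 4 libraries the genes nearest to AGO2 in log2(CPM + 1) were RBM10 (Euclidean distance 0.16), MAP4 (0.24) and FAM120A (0.24), and those nearest to DICER1 were NR3C1 (0.31), ATP6V1E1 (0.335) and CARMIL3 (0.35). RBM10 had 561 and 537 CPM in EPN24-Cas13d and 53.5 and 45.4 CPM in EPN24. NR3C1 had 17.3 and 13.1 CPM against 31.2 and 24.1 CPM.

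The split into 6 and 4 held under most settings for the higher messages and under fewer for the lower ones. The 6 higher messages were called higher in all 16 alternatives, with the smallest log2 fold changes at 0.66 for TARBP2 and AGO1, 1.5 for DGCR8, 1.62 for AGO4, 2.47 for XPO5 and 2.62 for AGO2. The number of lower calls varied from 4 to 0.

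**Figure D5:**
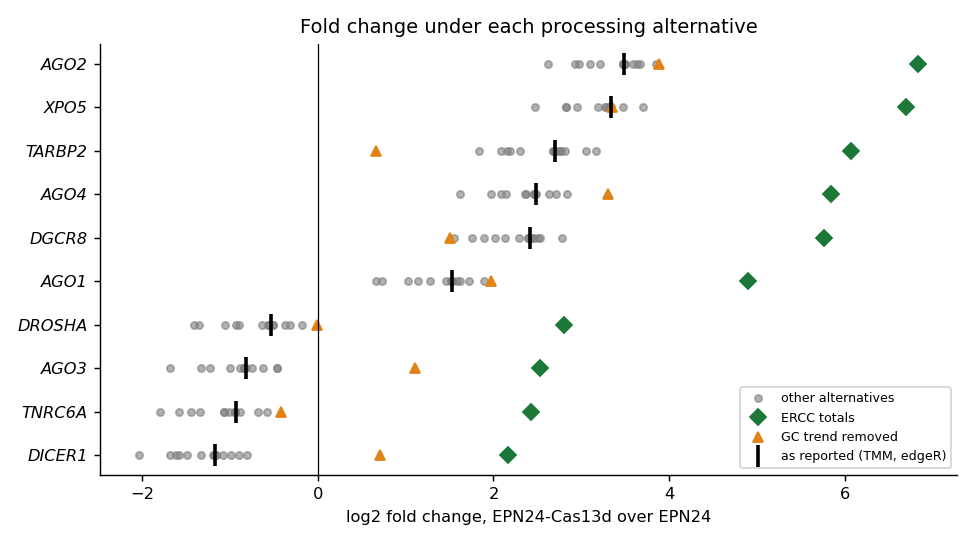
Log2 fold change (EPN24-Cas13d over EPN24) of each message as reported (black bar) and under 16 alternatives, with ERCC scaling as green diamonds, removal of the GC trend as orange triangles and the others in grey. The 6 upper messages stay above 0 throughout, whereas DICER1 and AGO3 turn positive under the diamonds and triangles, and DROSHA and TNRC6A under the diamonds.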

How the data were processed

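Total RNA of culture supernatant was sequenced from 2 EPN24-Cas13d and 2 EPN24 libraries, made with 17 PCR cycles and read as 150-nt pairs per the labels' protocols. The submitters' processing notes name Trim Galore 0.6.7, STAR 2.7.10a, featureCounts 2.0.1 and DESeq2 1.36.0 with GRCh38. The strand setting is not given in the sources used here, so overlapping antisense genes were not resolved. The authors deposited expected counts per gene with fractions (7.83% to 9.20% of values per library) and the exon length (another unit, in bp). Their second deposited table holds DESeq2 results: a mean normalized signal, log2 fold changes, Wald scores and p-values.

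Of 61640 rows, 5 broken pieces of a single gene's row were left out, leaving 61543 genes and 92 ERCC transcripts. Counts were rounded, filtered with filterByExpr (20476 genes kept), scaled by TMM without ERCC and fitted by edgeR 4.0.16 in R 4.3.3 (quasi-likelihood, robust), with Benjamini-Hochberg adjustment over all tested genes and a threshold of 0.05. SEs are approximate, taken from the fold change on the log2 scale and the F statistic. The script was tested on simulated data with few changed genes, as many up as down. That simulation does not cover data in which most genes are called, as here. GC content came from GENCODE 29 transcripts, found for 97.3% of tested genes. Alternatives were DESeq2 size factors, total counts, ERCC totals, other filters, the DESeq2 1.42.0 Wald test, limma-voom (limma 3.58.1), a replicate block, each library left out, counts halved, GC and length trends removed and background subtracted. The members, lists and alternatives were chosen with earlier results of these data known. All members are named, and from each pathway list the 2 genes with the smallest p and, for lists of at least 8 genes, the 2 most abundant. A gene that this rule selects is not reported here. TNRC6B, TNRC6C and the DGCR8 hairpins are named as sister genes and overlapping loci. Lower genes of the nuclear partner and chaperone lists are named because the rule picked only higher ones there. An exact permutation test over 2 against 2 libraries cannot go below p = 0.333 and was not used for calls.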

Additional observations from a re-analysis of the deposited data

How the results depend on the processing

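Each fold change was recomputed under 16 alternatives. All 16 kept the 6 higher messages called higher. DICER1 kept its direction and call in 13, TNRC6A in 12, AGO3 in 8 and DROSHA in 7. With ERCC totals 10 members were called higher and 0 lower, 53 and 2 of the pathway genes, and 11960 and 477 of all genes, and the log2 fold changes of DROSHA, DICER1, AGO3 and TNRC6A reversed to 2.80, 2.17, 2.53 and 2.43. With the GC trend removed 0 members and 18 pathway genes were called lower, and DICER1 (0.71) and AGO3 (1.11) reversed. The count of lower members was 1 with no filter and 2 with the DESeq2 Wald test. The stricter filter (10 counts and 10 CPM in both libraries of a group) called 9687 genes, 4909 of them lower, among 11601 tested, and background subtraction called 5775 lower. The cause of these shifts was not tested, but the set of tested genes also changed in some settings. From 20476 it fell to 11601 with the stricter filter, 15698 with background subtraction and 15289 with counts halved. With no filter it grew to 49197. Leaving out a library gave 1 to 4 lower members, with 1 left without either EPN24-Cas13d replicate. The ratio of member counts per ERCC count lay between 34.2 and 45.1 without a library and was 49.3 with background subtracted. Replicate 1 and 2 share only a number: the deviations of same-numbered libraries correlated at -0.0033, and the replicate block called 15041 genes in place of 16556, 6 members higher and 3 lower, DROSHA being the one lost. With every count divided by 2 and rounded, DICER1, AGO3 and TNRC6A, each with at most 112 counts in a library, kept their lower calls. The median log2 fold change of the tested genes was then -0.35, in place of -0.96. Dividing adds no counting noise, so this setting cannot show how low counts affect those calls.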
